A study of Arabidopsis thaliana with 8 samples.

Results

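Accessible chromatin regions (ACRs) of the pericentromeres of Arabidopsis thaliana were followed from the dry seed to the seedling. ACRs were taken as pericentromeric where the summit of the called peak lay in a window around a centromere, at 11.5-17.7 Mb of chromosome 1, 1.1-7.2 Mb of chromosome 2, 10.3-17.3 Mb of chromosome 3, 1.5-6.3 Mb of chromosome 4 or 9.0-16.0 Mb of chromosome 5 (TAIR10), and outside every annotated pseudogene or transposable element gene. Of the 30223 ACRs of the series, 3579 met this rule. Another 1671 ACRs of the same windows lay over pseudogenes or transposable element genes and were left aside, and 24580 ACRs outside the windows and outside such genes, called arm ACRs here, were the comparison. All libraries came from wild-type Col-0 and were made by ATAC-seq, in which a transposase cuts and tags DNA that is not covered by nucleosomes. The stages were dry seeds (DS), germinating seeds after 6 h of light (L6) and after 26 h of light (L26), and seedlings after 57 h of light (L57), with 2 libraries each. The seeds given light had been stratified in the cold and dark before it and grown in liquid medium under continuous light.

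Pericentromeres flank the centromere and are, in Arabidopsis, the main blocks of heterochromatin: compact chromatin with dense DNA methylation, histone H3 methylated at lysine 9 and many transposons, with fewer genes than the arms. The centromere itself is made of long arrays of a short satellite repeat on which the centromeric histone H3 sits. Genes do lie between the repeats, and an ACR at such a gene is commonly a promoter or another regulatory sequence.

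Sequences are given here for 5 of the members on which the results below turn, as the 300 bases around the summit on the plus strand of the reference, which is TAIR10.1 and has the same nuclear chromosomes as TAIR10. The region in the coding exon of HSP17.4 (chr3:16984367-16984666) and the region upstream of NIR1 (chr2:6809170-6809469) held none of 6 short promoter motifs that were searched. The ACR at HSP17.4 is 1050 bp wide, and the rest of it was not searched in these 300 bases. Capitals mark a motif in the other sequences: a telobox (AAACCCTA, here on the other strand) upstream of PHOT1 (chr3:16815050-16815349), a site II-type motif (TGGGCC) upstream of CDPK2 (chr1:13203506-13203805) and a match to the core of the heat shock element (GAANNTTC) upstream of AT1G36060 (chr1:13457088-13457387).
HSP17.4: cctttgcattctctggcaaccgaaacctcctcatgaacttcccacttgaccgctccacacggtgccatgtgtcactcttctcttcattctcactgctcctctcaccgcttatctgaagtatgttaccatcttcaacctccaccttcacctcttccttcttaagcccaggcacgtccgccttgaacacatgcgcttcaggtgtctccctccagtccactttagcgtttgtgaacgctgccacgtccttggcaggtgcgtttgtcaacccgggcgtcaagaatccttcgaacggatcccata
NIR1: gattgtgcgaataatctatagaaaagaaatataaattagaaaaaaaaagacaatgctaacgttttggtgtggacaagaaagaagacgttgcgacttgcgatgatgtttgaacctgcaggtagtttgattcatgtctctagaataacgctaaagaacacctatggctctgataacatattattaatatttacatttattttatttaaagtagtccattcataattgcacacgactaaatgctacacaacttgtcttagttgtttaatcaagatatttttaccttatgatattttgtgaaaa
PHOT1: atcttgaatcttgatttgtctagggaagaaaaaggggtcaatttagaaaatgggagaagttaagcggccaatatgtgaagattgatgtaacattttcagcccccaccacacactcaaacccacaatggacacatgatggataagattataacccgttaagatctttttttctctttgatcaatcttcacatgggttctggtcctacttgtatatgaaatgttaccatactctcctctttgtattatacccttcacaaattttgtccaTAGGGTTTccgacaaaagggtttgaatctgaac
CDPK2: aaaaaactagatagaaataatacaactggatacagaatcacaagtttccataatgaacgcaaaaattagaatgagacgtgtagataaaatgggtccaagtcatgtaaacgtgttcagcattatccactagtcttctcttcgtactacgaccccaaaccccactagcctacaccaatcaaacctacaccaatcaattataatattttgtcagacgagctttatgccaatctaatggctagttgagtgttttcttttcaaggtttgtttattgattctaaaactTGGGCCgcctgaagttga
AT1G36060: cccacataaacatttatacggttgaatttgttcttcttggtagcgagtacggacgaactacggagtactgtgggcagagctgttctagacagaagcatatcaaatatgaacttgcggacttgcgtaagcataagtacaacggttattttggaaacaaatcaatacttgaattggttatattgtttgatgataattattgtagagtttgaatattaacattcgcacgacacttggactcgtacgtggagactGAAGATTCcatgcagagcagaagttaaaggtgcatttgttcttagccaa
These 5 regions, which include the largest rise and the largest fall at several steps of the time course, were found to have no other match of the same length and identity in the genome.

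Another group of members lay over a repeat with a period of 178 bases, the length of the satellite that makes up Arabidopsis centromeres. A unit of 178 bases is shown for 3 of them, from chr3:13591653-13591830 on the plus strand, chr4:3950897-3951074 on the minus strand and chr5:11726166-11726343 on the plus strand. Capitals mark the bases that differ from the unit of chromosome 3, which are 13 in the unit of chromosome 4 (92.7% identity) and 14 in the unit of chromosome 5 (92.1% identity).
Chromosome 3: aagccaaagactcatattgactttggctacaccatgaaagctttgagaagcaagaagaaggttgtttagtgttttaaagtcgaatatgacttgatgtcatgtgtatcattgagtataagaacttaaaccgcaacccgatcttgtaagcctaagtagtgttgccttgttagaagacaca
Chromosome 4: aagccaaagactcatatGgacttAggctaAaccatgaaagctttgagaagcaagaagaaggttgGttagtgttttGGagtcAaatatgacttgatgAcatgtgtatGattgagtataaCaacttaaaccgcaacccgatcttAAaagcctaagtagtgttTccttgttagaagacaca
Chromosome 5: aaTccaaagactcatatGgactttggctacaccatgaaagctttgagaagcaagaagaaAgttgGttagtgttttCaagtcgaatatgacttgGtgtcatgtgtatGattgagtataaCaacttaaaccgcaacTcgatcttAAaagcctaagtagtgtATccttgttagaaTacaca

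Counts per library over all ACRs ranged from 1534759 to 3734831 and were lowest in L57, so the L57 values carry the largest counting error. Members had a median of 53.9 counts per library and arm ACRs 65.6. The 2 libraries of each stage were not copies of each other, with a chi-square between them of 1.76 to 1.97 per degree of freedom. No source used here states whether they came from separate seed batches, and the p-values cover only the spread between libraries, which may be technical. The extraction protocol describes embryos pressed out of germinating seeds and does not say how dry seeds or seedlings were handled, so stage and tissue composition cannot be told apart. In such bulk samples, a region open in fewer cells and a region less open in each cell cannot be told apart either. None of 9 endosperm marker genes had an ACR at its promoter. Of 9 seed coat markers BAN, TT12, TT10, MUM2 and TT2 had none either, whereas 4 (TT8, GL2, MUM4 and TTG2) had such an ACR. The summed CPM of those 4 was 74.4 and 82.8 in DS, 99.5 and 94.0 in L6, 151 and 156 in L26, and 106 and 129 in L57, highest in both L26 libraries. The 4 did not move together. At L6 against DS, GL2 and TTG2 rose (log2 fold change 0.85 and 0.54). MUM4 and TT8 did not (log2 fold change -0.56 and -0.25, edgeR adjusted p = 0.0974 and 0.574). The part of seed coat chromatin in the results below was not tested.

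The windows matched their label by gene content. Together they span 31.1 Mb and hold 109 protein-coding genes and 121 pseudogenes or transposable element genes per Mb, against 273 and 12.1 per Mb in the arms. ACRs outside pseudogenes were accordingly thinner on the ground, at 115 per Mb in the windows and 279 per Mb in the arms. Members lay farther from genes than arm ACRs did: the median distance to an annotated gene start was 955 bp for members and 527 bp for arm ACRs, and 10.8% of members but 0.598% of arm ACRs lay over 5 kb from any start. The median GC content of the 501 bases around the summit was 38.9% for members and 37.3% for arm ACRs. Another match in the genome of at least 100 bases and 90% identity was found for 679 members (19.0%) and for 1174 arm ACRs (4.78%). These are called multi-copy below. No member had such a match in the organellar genomes. Reads mapped with a quality under 10 had been removed by the authors, so the counts of multi-copy ACRs hold only reads that could be placed, and which copy they came from is less sure. By position, 888 members lay at promoters (from 400 bp upstream to 100 bp downstream of a start), 1565 in gene bodies and 1126 between genes, and intergenic ACRs made up 31.5% of members against 21.7% of arm ACRs.

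Pericentromeric ACRs changed over the time course somewhat less often than arm ACRs, though not at promoters. All 3579 members were tested and none was lost to a filter. A difference between any stages passed the test (edgeR quasi-likelihood, Benjamini-Hochberg adjusted p below 0.05 over all ACRs) in 1732 members, or 48.4%, against 59.0% of arm ACRs and 56.6% of all ACRs. At promoters it passed in 56.4% of members and 56.7% of arm ACRs. The shares were 37.3% and 51.1% in gene bodies, and 57.5% and 77.8% between genes. Members also had lower levels, with a median of 19.8 mean CPM against 24.4 in arm ACRs. The part of level in these shares was not tested. At L6 against DS, 494 members (13.8%) rose and 492 (13.7%) fell, where 17.6% of all ACRs rose and 14.3% fell, and 19.5% of arm ACRs rose and 12.7% fell. The median log2 fold change at this step was -0.09 for members and 0.04 for arm ACRs. Comparisons that name the same stage share its libraries and are not independent. At L26 against L6, 340 members (9.50%) rose and 180 (5.03%) fell, beside 8.71% and 7.91% of all ACRs, with a median of 0.06 for members and -0.04 for arm ACRs. At L57 against L26, 135 members rose (3.77%) and 243 fell (6.79%), beside 7.53% and 6.19% of all ACRs, with medians of -0.07 for members and -0.01 for arm ACRs. Between the ends of the series, L57 against DS, 416 members (11.6%) rose and 374 (10.4%) fell, beside 17.0% and 12.2% of all ACRs, with medians of -0.08 for members and 0.04 for arm ACRs.

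These splits depended on the scaling and on single libraries. With total counts as the only scaling, 400 members rose and 765 fell at L6, 527 rose and 149 fell at L26, 190 rose and 203 fell at L57 against L26, and 508 rose and 281 fell at L57 against DS. This scaling moved all ACRs the same way, with 4780 higher and 5924 lower at L6, 3813 and 2279 at L26, 2705 and 1919 at L57 against L26, and 5995 and 3359 at L57 against DS. The median of members minus that of arm ACRs was then -0.18 at L6 against DS and -0.10 at L57 against DS, where it was -0.13 and -0.12 with the main scaling. The medians of L26 against L6 and of L57 against L26 rested on L26 replicate 2. Without that library they were 0.00 and -0.02, with 162 members higher and 94 lower at L26 against L6, and 116 higher and 133 lower at L57 against L26. The difference between the member and arm medians was then 0.02 at L26 against L6, where it was 0.09 with all libraries.

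The share of a library's counts that fell in members does not need scaling between libraries. It was 9.82 and 9.74% in DS, 9.22 and 9.33% in L6, 9.77 and 10.4% in L26, and 10.3 and 9.80% in L57. Both L6 libraries lay below every other library, and the other stages overlapped. The 95% Wilson interval, which covers counting error only, was 9.19 to 9.25% for the lowest library (L6 replicate 1). The log2 ratio of member to arm counts changed by -0.11 at L6 against DS and by 0.04 at L57 against DS. For L57 against DS the sign was thus opposite to that of the median log2 fold change of members, -0.08. That sign rested on L57 replicate 1. The ratio was -3.026 in it and -3.120 in L57 replicate 2, beside -3.101 and -3.118 in DS.

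**Figure D1:**
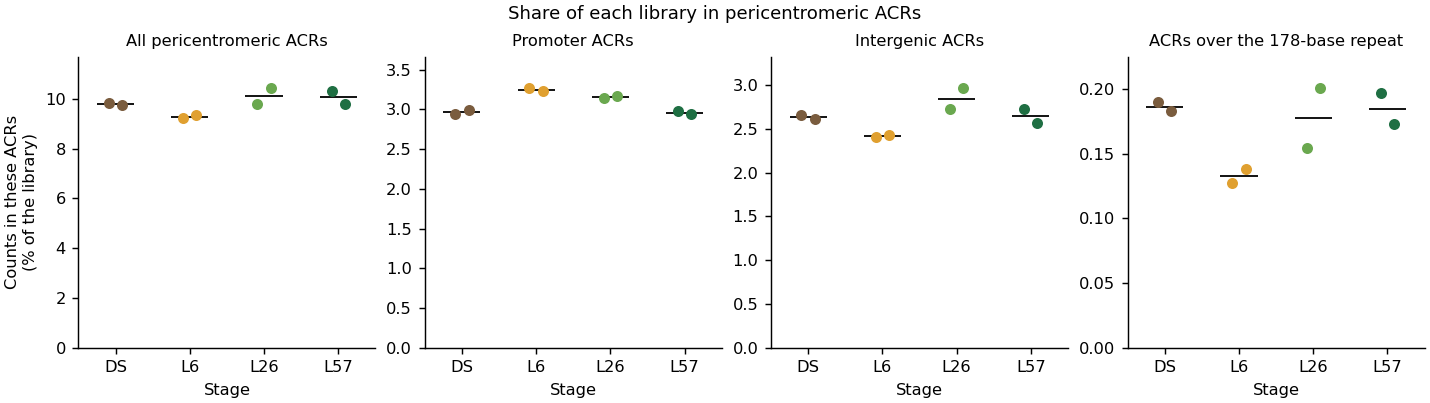
Percent of each library's ACR counts that fell in pericentromeric ACRs, by stage, for all 3579 members, for those at promoters, between genes and over the 178-base repeat. Points are libraries, lines are means of 2 libraries. The L6 libraries have the lowest shares of all members, of intergenic members and of the repeat, and the highest shares of promoter members.

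Promoter ACRs of the pericentromere were more often higher than lower at L6, whereas intergenic ACRs were about as often lower as higher. Of the 888 promoter members, 219 (24.7%) rose and 54 (6.08%) fell at L6 against DS, with a median log2 fold change of 0.21, and arm promoters had 22.3% higher, 9.11% lower and a median of 0.17. Their share of library counts was 2.94 and 2.99% in DS, 3.26 and 3.23% in L6, 3.15 and 3.17% in L26, and 2.98 and 2.94% in L57. The L6 libraries were thus above all others. Among the 1565 members in gene bodies, 87 rose (5.56%) and 229 fell (14.6%) at L6, beside 8.71% and 17.8% of arm gene body ACRs. Their median was -0.21, the same as in arm gene bodies. Intergenic members differed most from their arm counterparts: 188 of 1126 rose (16.7%) and 209 fell (18.6%), with a median of -0.15, while 35.2% of arm intergenic ACRs rose and 9.06% fell, with a median of 0.32.

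Offsets that also fit GC content moved these values. With them, promoter members had 114 higher, 90 lower and a median of 0.08 at L6, gene body members 100 higher, 126 lower and -0.06, and intergenic members 75 higher, 156 lower and -0.15. Arm medians became 0.05 at promoters, -0.07 in gene bodies and 0.03 between genes. The median of intergenic members was therefore as low with the GC fit as without it, and their distance from arm intergenic ACRs shrank. Counts also depended on single libraries. Without DS replicate 1, intergenic members had a median of -0.09, with 114 higher and 101 lower, promoter members had 134 higher, and gene body members 94 lower. Without L6 replicate 1, promoter members had 137 higher and gene body members 97 lower.

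Intergenic members rose more often than they fell at L26 against L6. Here 162 rose (14.4%) and 61 fell (5.42%), with a median of 0.16, beside 15.4% higher, 15.4% lower and 0.01 in arm intergenic ACRs. Without L26 replicate 2 the median of intergenic members was 0.06, with 87 higher and 39 lower. At L57 against L26, 30 rose and 124 fell, with a median of -0.18, beside -0.17 in arm intergenic ACRs. With the GC fit these medians were -0.15 for members and -0.02 for arms. The 124 falls became 69 without L26 replicate 2, 60 without L57 replicate 1 and 54 without L57 replicate 2. In gene bodies, at the same step, 71 members rose (4.54%) and 43 fell (2.75%), with a median of 0.04, whereas 13.0% of arm gene body ACRs rose and 2.84% fell, with a median of 0.22. Fitted with GC, the medians were -0.03 for members and 0.14 for arms. The number of gene body members that rose was 26 without L26 replicate 1, 25 without L57 replicate 1 and 41 without L57 replicate 2.

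**Figure D2:**
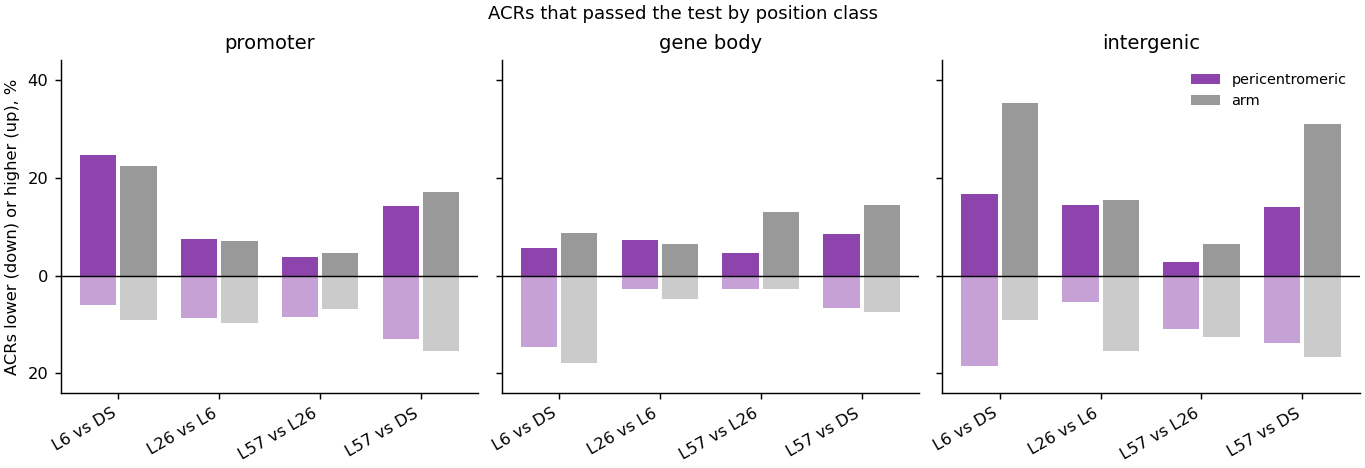
Percent of ACRs higher (above the line, solid) and lower (below the line, pale) in each comparison, for pericentromeric and arm ACRs by position class. At L6 against DS the intergenic bars differ most, with 16.7% of pericentromeric and 35.2% of arm ACRs higher.

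Log2 fold changes at L6 against DS were lower farther inside the windows. Distance was taken to the nearer window edge and not to the centromere. The window of chromosome 4 is too narrow to reach the last bin below. From the window edge inwards, in bins of 0.5 Mb and a last bin beyond 2.5 Mb, the median log2 fold change of L6 against DS was 0.01 (1080 members), -0.01 (901), -0.06 (620), -0.13 (354), -0.31 (315) and -0.40 (309). Just outside the edge, within 1 Mb, the median of 2734 arm ACRs was also 0.01. The share of members that fell was 11.1% in the outermost bin and 30.1% in the innermost, and the share that rose was 15.6% and 4.85%. Composition differed along the same axis: promoters were 10.0% of members in the innermost bin and 31.7% in the outermost, and multi-copy members were 56.3% of the innermost bin and 9.44% of the outermost. The median GC content was 41.5% in the innermost bin and 38.1% in the outermost. Among single-copy members alone the medians of the bins from the edge inwards were 0.02, 0.00, -0.03, -0.06, -0.21 and -0.22. With the GC fit, and over all members of each bin, they were -0.02, 0.00, 0.00, -0.05, -0.22 and -0.26. At L57 against DS the innermost bin had a median of -0.29 and the outermost -0.02.

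**Figure D3:**
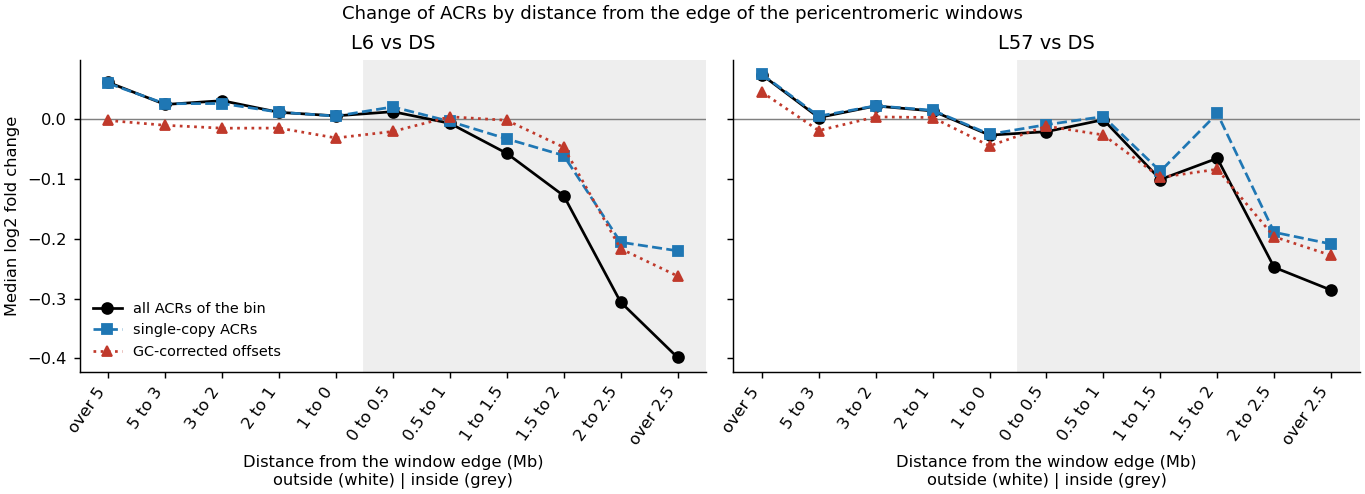
Median log2 fold change of ACRs against distance from the window edge, outside (white) and inside (grey) the pericentromeric windows, for L6 against DS and L57 against DS. Black circles are all ACRs of a bin, blue squares single-copy ACRs and red triangles all ACRs fitted with GC-corrected offsets. Values lie near 0 up to 1 Mb inside the edge and are lowest in the innermost bin, -0.40 for L6 against DS.

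Position and class were read together by splitting the members at 1 Mb from the window edge. The 678 inner intergenic members had a median log2 fold change of -0.33 at L6 against DS, with 79 higher and 168 lower, and the 448 outer intergenic members 0.20, with 109 higher and 41 lower. Without DS replicate 1 the inner ones had 47 higher and 76 lower and the outer ones 67 higher and 25 lower. With the GC fit these medians were -0.22 and -0.04, so that of the outer ones changed sign. Promoters did not follow the gradient: the 300 inner promoter members had a median of 0.21, with 82 higher and 15 lower, and the 588 outer ones 0.20. Copy number divided the intergenic members in a like way. The 430 multi-copy ones had 18 higher, 129 lower and a median of -0.44 at L6, and -0.29 with the GC fit. The 696 single-copy ones had 170 higher, 80 lower and 0.14, and -0.05 with the GC fit. Copy number did not divide arm intergenic ACRs in this way. The 203 multi-copy ones of the arms had 55 higher (27.1%), 15 lower (7.39%) and a median of 0.24. The 5119 single-copy ones of the arms had 35.5% higher, 9.12% lower and a median of 0.32. With the GC fit these arm medians were 0.05 and 0.02. Of all ACRs 17.6% rose and 14.3% fell at this step. Within each chromosome the member median was below the arm median, at -0.03, -0.10, -0.09, -0.14 and -0.11 on chromosomes 1 to 5 for members and between 0.03 and 0.05 for arms. With the GC fit this held on chromosomes 2 to 5 but not on chromosome 1, where the median was 0.00 for members and -0.01 for arms.

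The centromeric satellite is normally packed into repressed or centromeric chromatin. A self-match with a period of 178 bases was found in 31 members, 24 intergenic and 7 in gene bodies, on every chromosome (3, 6, 6, 5 and 11 on chromosomes 1 to 5) and 2.29 to 3.34 Mb inside the window edges. A period in the searched range of 170 to 190 bases was found in no ACR outside the members. Their 501-base windows had 3 to 455 other matches in the genome, with a median of 228. This group was recognised after values had been seen, its members share sequence and may share reads, and its values are a description. In all but 1 of the 31 the log2 fold change of L6 against DS was below 0, with a median of -0.50. The test was passed by 14 of them, all lower (45.2%), beside 14.3% of all ACRs, and by 18 lower and none higher at an unadjusted p below 0.05. The fall was not particular to this repeat. The 1671 ACRs over pseudogenes or transposable element genes in the windows had 0.658% higher, 37.3% lower and a median of -0.49. With the GC fit the medians were -0.21 for those ACRs and -0.61 for the 31. At L26 against L6, 28 were above 0 with a median of 0.33, and 12 rose and none fell, or 13 and none at an unadjusted p below 0.05. Both comparisons use the same L6 libraries. With DESeq2 the counts were smaller, 4 lower at L6 and 2 higher at L26. Under each of the 4 other scalings of the edgeR test no member of the group passed in the other direction at either step, with 14 to 19 lower at L6 and 8 to 12 higher at L26. Without L6 replicate 1, 7 were lower at L6. At L26 against L6, 5 were higher without L26 replicate 2 and 7 without L6 replicate 1.

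The most accessible ACR of this group, at chr3:13591485-13592118, had 185 and 191 CPM in DS, 118 and 128 CPM in L6, 206 and 243 CPM in L26, and 345 and 239 CPM in L57. L6 was its lowest stage and L57 its highest, with the replicates of L57 far apart. The ACR at chr4:3950592-3951606 had 174 and 169 CPM in DS, 127 and 137 CPM in L6, 186 and 234 CPM in L26, and 307 and 239 CPM in L57, the same order of stages. At chr5:11725995-11726716, the levels were 151 and 149 CPM in DS, 94.8 and 95.6 CPM in L6, 152 and 212 CPM in L26, and 217 and 204 CPM in L57. These and 3 more with a mean of at least 100 CPM all fell at L6, with log2 fold changes from -0.71 to -0.38, and all rose at L26 against L6, with log2 fold changes from 0.41 to 0.94. Of the 6, 4 were also higher at L57 against DS, but with TMM factors, DESeq2 size factors or total counts as scaling none of the 31 was higher there. The other 25 had a median log2 fold change of -0.21 at L57 against DS, with none higher and 2 lower. Together the 31 took 0.190 and 0.183% of library counts in DS, 0.128 and 0.138% in L6, 0.154 and 0.201% in L26, and 0.197 and 0.173% in L57. Both L6 libraries were below all others, and L26 overlapped DS and L57. The median of the other 648 multi-copy members at L6 against DS was -0.31, with 46 higher and 146 lower.

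**Figure D4:**
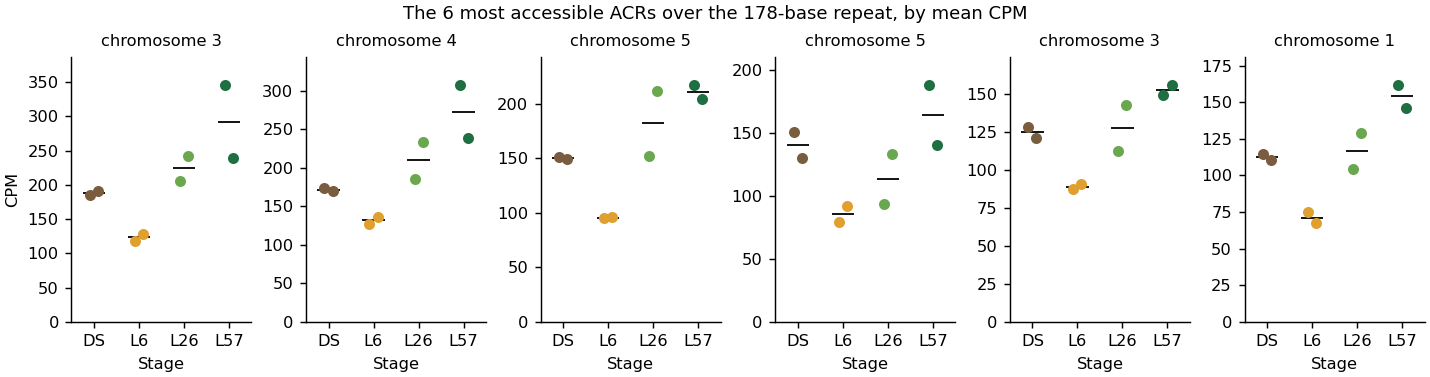
CPM of the 6 most accessible ACRs over the 178-base repeat in each of 8 libraries, by stage. Points are libraries and lines means of 2 libraries. In each of the 6, both L6 libraries lie below all libraries of the other stages.

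Single regions changed far more than these medians. Members are named below by the gene that holds the summit or has the nearest start, and the largest rises and falls among called members with a mean of at least 10 CPM and libraries that did not overlap were taken for each comparison. They were chosen for their size, and their fold changes are to be read as such.

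The largest falls between DS and L6 were at HSP17.4, at a pair of GASA genes and at EMB2770. HSP17.4 encodes a small heat shock protein, a chaperone that accumulates in maturing seeds. The ACR with its summit in the coding exon is 1050 bp wide. That summit lies 182 bp from the gene start, so the counts also cover the start. The ACR had 250.3 and 240.2 CPM in DS, 43.1 and 50.0 CPM in L6, 45.3 and 54.7 CPM in L26 and 72.8 and 55.2 CPM in L57. Both DS libraries were far above the rest, and the log2 fold change of L6 against DS was -2.39 ± 0.12 (SE, edgeR adjusted p = 4.59e-45). GASA2 and GASA3 are neighbours on chromosome 4 and encode small cysteine-rich peptides related to gibberellin-regulated ones. The ACR 447 bp upstream of GASA2 had 133 and 117 CPM in DS, 23.2 and 29.3 CPM in L6, 31.9 and 27.8 CPM in L26 and 35.5 and 36.6 CPM in L57. It fell at L6 (log2 fold change -2.25 ± 0.16 SE, edgeR adjusted p = 1.81e-29), as did the ACR at the promoter of GASA3 (log2 fold change -2.24 ± 0.17 SE, edgeR adjusted p = 7.91e-27). EMB2770, a splicing factor, had an ACR at its 3′ end with 52.3 and 45.3 CPM in DS, 9.92 and 14.5 CPM in L6, 19.8 and 23.1 CPM in L26 and 25.3 and 35.7 CPM in L57. It fell at L6 (log2 fold change -1.99 ± 0.23 SE, edgeR adjusted p = 1.27e-13) and was again higher in L26 than in L6 (log2 fold change 0.82 ± 0.29 SE, edgeR adjusted p = 0.0376).

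A region 1075 bp upstream of NIR1, the gene of nitrite reductase in nitrate assimilation, was the largest riser at L6. It had 7.16 and 9.52 CPM in DS, 60.1 and 60.4 CPM in L6, 12.9 and 7.24 CPM in L26 and 10.4 and 6.91 CPM in L57. It was far higher in L6 than at any other stage: the log2 fold change was 2.84 ± 0.23 (SE, edgeR adjusted p = 4.82e-23) at L6 against DS and -2.62 ± 0.26 (SE, edgeR adjusted p = 8.05e-17) at L26 against L6. GTL1 encodes a trihelix transcription factor that limits cell growth, and an ACR 2745 bp from its start had 9.68 and 8.73 CPM in DS, 41.8 and 35.5 CPM in L6, 29.0 and 22.8 CPM in L26 and 11.6 and 22.3 CPM in L57. The level was highest in L6 (log2 fold change 2.06 ± 0.25 SE, edgeR adjusted p = 2.49e-12, against DS). The ACR 873 bp upstream of scpl44, a serine carboxypeptidase-like gene, had 8.43 and 8.89 CPM in DS, 37.4 and 32.2 CPM in L6, 23.6 and 17.2 CPM in L26 and 9.67 and 4.38 CPM in L57. In L6 both libraries exceeded all others (log2 fold change 2.00 ± 0.26 SE, edgeR adjusted p = 2.94e-11).

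An ACR in the gene body of AT1G07197, a long non-coding RNA gene on chromosome 1, lay within 3 kb of the one at scpl44 and had a like course. It had 23.7 and 30.3 CPM in DS, 90.6 and 95.7 CPM in L6, 65.2 and 52.2 CPM in L26 and 12.4 and 12.4 CPM in L57. The level was higher in L6 than in DS (log2 fold change 1.78 ± 0.16 SE, edgeR adjusted p = 1.07e-19) and lower in L57 than in L26 (log2 fold change -2.23 ± 0.27 SE, edgeR adjusted p = 1.60e-11), the largest fall of that step. Another riser at L6, 2893 bp upstream of the non-coding RNA gene AT2G00570, had 5.56 and 4.96 CPM in DS, 22.5 and 18.3 CPM in L6, 9.71 and 13.5 CPM in L26 and 8.01 and 4.49 CPM in L57. It rose at L6 (log2 fold change 1.94 ± 0.30 SE, edgeR adjusted p = 2.04e-08). This ACR is multi-copy, with 1 other match in the genome.

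PHOT1, a blue light receptor of phototropism, had the largest rise at L26. The ACR 1521 bp upstream of it had 17.4 and 18.7 CPM in DS, 16.7 and 14.3 CPM in L6, 68.5 and 73.2 CPM in L26 and 68.4 and 78.3 CPM in L57. Both late stages were above both early ones, with a log2 fold change of 2.19 ± 0.21 (SE, edgeR adjusted p = 8.16e-18) at L26 against L6. AT2G10940 belongs to the family of lipid-transfer proteins and seed albumins, and the ACR 1907 bp upstream of it had 8.77 and 10.3 CPM in DS, 8.68 and 7.72 CPM in L6, 23.5 and 32.8 CPM in L26 and 32.1 and 35.3 CPM in L57. It also rose between L6 and L26 (log2 fold change 1.80 ± 0.30 SE, edgeR adjusted p = 8.08e-07). At the promoter of AT4G04995, a long non-coding RNA gene, the levels were 39.1 and 28.4 CPM in DS, 19.9 and 23.7 CPM in L6, 69.4 and 80.2 CPM in L26 and 63.4 and 68.7 CPM in L57. AT2G16580 is a SAUR gene, of a family that responds to auxin, and the ACR 1003 bp upstream of it had 12.4 and 8.80 CPM in DS, 26.3 and 16.5 CPM in L6, 67.6 and 72.1 CPM in L26 and 27.4 and 23.6 CPM in L57. It was highest in L26, with a log2 fold change of 1.72 ± 0.20 (SE, edgeR adjusted p = 2.42e-12) against L6, and lower again in L57 (log2 fold change -1.46 ± 0.22 SE, edgeR adjusted p = 1.82e-07).

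Falls at L26 after NIR1 began with the promoter of NAC060, a transcription factor gene of sugar and abscisic acid signalling, with a log2 fold change of -1.99 ± 0.19 (SE, edgeR adjusted p = 3.02e-17). The promoter of AT5G35560, which encodes a DENN domain protein, had 13.5 and 10.2 CPM in DS, 21.0 and 13.4 CPM in L6, 4.85 and 4.88 CPM in L26 and 7.43 and 12.9 CPM in L57. It fell at L26 against L6 (log2 fold change -1.80 ± 0.37 SE, edgeR adjusted p = 6.66e-05). RIPK encodes a receptor-like cytoplasmic kinase, and an ACR 2429 bp from its start had 7.44 and 11.3 CPM in DS, 25.1 and 18.6 CPM in L6, 5.34 and 7.51 CPM in L26 and 10.9 and 4.96 CPM in L57. Like NIR1 it was highest in L6, and it fell at L26 (log2 fold change -1.72 ± 0.33 SE, edgeR adjusted p = 1.61e-05).

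The largest rises at L57 against L26 included 2 multi-copy ACRs. An ACR at chr3:14194882-14195320, near the non-coding RNA gene AT3G41761, had 38.4 and 33.2 CPM in DS, 24.9 and 23.0 CPM in L6, 9.90 and 8.71 CPM in L26 and 36.3 and 37.4 CPM in L57. It was lowest in both L26 libraries (log2 fold change 1.99 ± 0.31 SE, edgeR adjusted p = 2.28e-07, at L57 against L26). It had already fallen at L6 against DS (log2 fold change -0.58 ± 0.21 SE, edgeR adjusted p = 0.0241). Its sequence has a period of 185 bases, a GC content of 56.9% and 12 other matches in the genome. A multi-copy ACR near AT5G05045 with 136 other matches had 17.5 and 19.4 CPM in DS, 9.65 and 6.15 CPM in L6, 7.28 and 8.31 CPM in L26 and 23.9 and 16.7 CPM in L57 and a log2 fold change of 1.34 ± 0.35 (SE, edgeR adjusted p = 0.00392), a call that was lost without L57 replicate 1. In the body of MYB110, a transcription factor gene, the ACR had 16.8 and 15.9 CPM in DS, 18.0 and 13.6 CPM in L6, 7.25 and 11.4 CPM in L26 and 28.4 and 20.4 CPM in L57, and a log2 fold change of 1.33 ± 0.33 (SE, edgeR adjusted p = 0.00221) at L57 against L26, a call that was lost without L26 replicate 1 or L57 replicate 1. AT2G14255 encodes an ankyrin repeat protein with a palmitoyltransferase domain, and the ACR at its 3′ end had 35.8 and 27.8 CPM in DS, 29.1 and 21.6 CPM in L6, 20.7 and 19.4 CPM in L26 and 48.6 and 49.3 CPM in L57. L57 was above all earlier libraries there (log2 fold change 1.29 ± 0.24 SE, edgeR adjusted p = 3.81e-05).

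Other falls at L57 were at low levels. The ACR upstream of AT1G47400, had 10.5 and 14.6 CPM in DS, 15.9 and 10.6 CPM in L6, 27.7 and 20.8 CPM in L26 and 2.84 and 8.33 CPM in L57. It fell at L57 against L26 (log2 fold change -2.03 ± 0.38 SE, edgeR adjusted p = 2.27e-05). The ACR upstream of AT1G34200, annotated as related to glyceraldehyde-3-phosphate dehydrogenase, had 11.6 and 11.2 CPM in DS, 19.3 and 26.3 CPM in L6, 14.1 and 22.7 CPM in L26 and 0 and 10.8 CPM in L57. Its call (log2 fold change -1.70 ± 0.41 SE, edgeR adjusted p = 0.00173) rested on a library with no count, so that its size depends on the prior count of the fit, and it was lost with DESeq2 and without L26 replicate 2 or L57 replicate 1. The call in the body of AT1G36150 was also lost without either of these libraries.

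Between DS and L57 the largest riser lay 1689 bp upstream of CDPK2, a calcium-dependent protein kinase. It had 21.0 and 23.0 CPM in DS, 78.5 and 62.7 CPM in L6, 79.1 and 86.1 CPM in L26 and 106 and 90.2 CPM in L57. All libraries after DS were above both DS libraries, with a log2 fold change of 2.15 ± 0.18 (SE, edgeR adjusted p = 6.27e-22) at L57 against DS. EXO, a growth gene that responds to brassinosteroid, had an ACR at its promoter with 10.9 and 10.4 CPM in DS, 24.4 and 26.8 CPM in L6, 33.4 and 34.1 CPM in L26 and 32.3 and 48.2 CPM in L57. It rose between DS and L57 (log2 fold change 1.93 ± 0.26 SE, edgeR adjusted p = 2.86e-10). XTH31 encodes a cell wall enzyme, a xyloglucan endotransglucosylase/hydrolase, and an ACR 2466 bp from its start had 13.5 and 12.7 CPM in DS, 32.2 and 26.5 CPM in L6, 42.7 and 42.8 CPM in L26 and 49.0 and 47.9 CPM in L57. DS was the lowest stage in both, and XTH31 had a log2 fold change of 1.88 ± 0.24 (SE, edgeR adjusted p = 2.16e-11) at L57 against DS.

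Falls over the whole course after GASA3 were led by a region 902 bp upstream of AT1G36060, which encodes a transcription factor of the ERF/AP2 family related to DREB proteins. Its levels were 108 and 97.3 CPM in DS, 34.6 and 41.0 CPM in L6, 19.7 and 20.9 CPM in L26 and 15.4 and 15.9 CPM in L57. The mean was lower at each later stage, and the log2 fold change of L57 against DS was -2.71 ± 0.22 (SE, edgeR adjusted p = 6.62e-24). NRT2.6 is of the nitrate transporter family, and the ACR 911 bp upstream of it had 22.9 and 22.3 CPM in DS, 7.11 and 9.97 CPM in L6, 5.34 and 10.5 CPM in L26 and 6.28 and 1.98 CPM in L57. It fell between DS and L57 (log2 fold change -2.49 ± 0.38 SE, edgeR adjusted p = 1.49e-08). In the body of LCR30, a gene of a small cysteine-rich protein, the ACR had 37.5 and 26.8 CPM in DS, 23.6 and 20.5 CPM in L6, 12.0 and 20.2 CPM in L26 and 2.29 and 9.80 CPM in L57. It fell as well (log2 fold change -2.34 ± 0.34 SE, edgeR adjusted p = 2.99e-09).

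**Figure D5:**
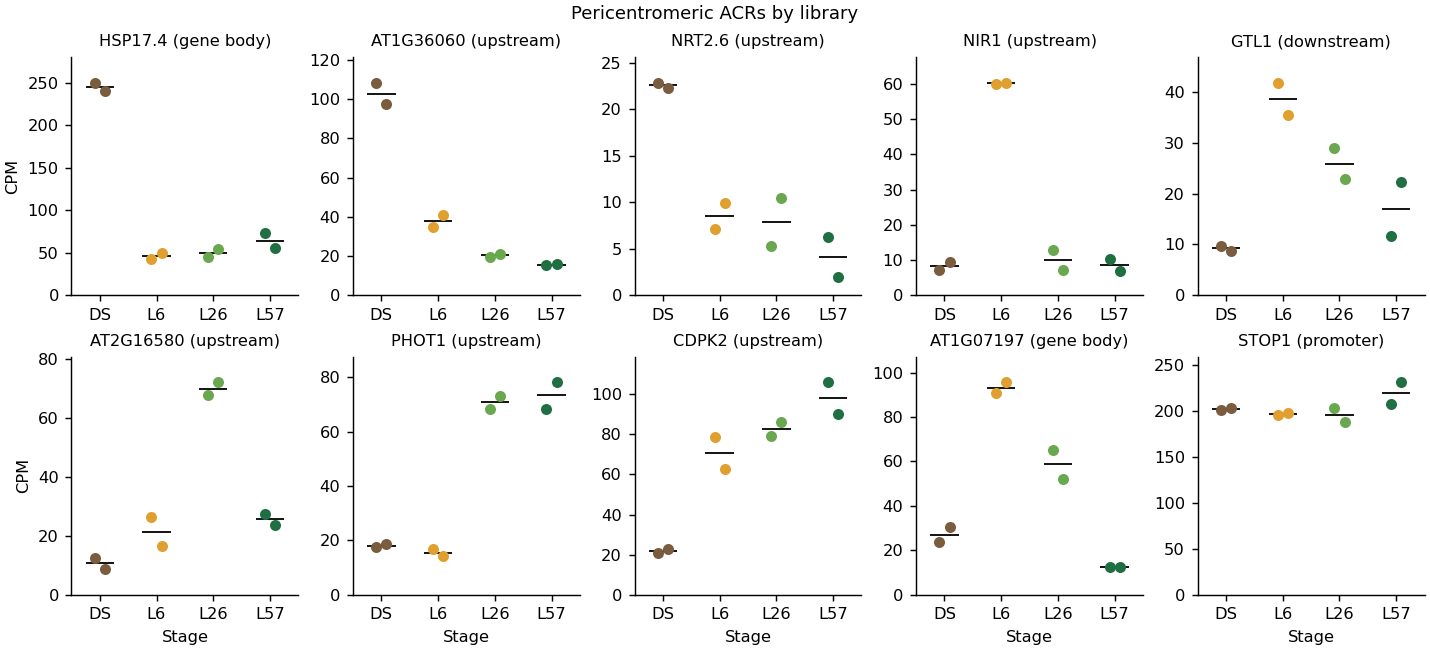
CPM of 10 named pericentromeric ACRs in each library, by stage, with points for libraries and lines for means of 2 libraries. HSP17.4, AT1G36060 and NRT2.6 are highest in DS, NIR1 in L6 alone, AT2G16580 in L26, and PHOT1 in L26 and L57, while STOP1 lies between 188 and 232 CPM throughout.

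Some members had like levels at all stages, and the most accessible were not all among them. The highest mean was in the coding exon of the aspartyl protease gene AT5G37540, with 367 and 339 CPM in DS, 313 and 320.0 CPM in L6, 298 and 273 CPM in L26 and 299 and 324 CPM in L57. It was highest in DS and passed the test over the 4 stages (edgeR adjusted p = 0.00583). STOP1, a zinc finger transcription factor of acid and aluminium tolerance, had 201 and 203 CPM in DS, 196 and 198 CPM in L6, 203 and 188 CPM in L26 and 208 and 232 CPM in L57 at its promoter. No difference between its stages passed the test (edgeR adjusted p = 0.399 over the 4 stages). Among members with a mean of at least 20 CPM, the smallest F over the 4 stages was at the promoter of MCM4, a DNA replication gene, with 37.0 and 36.1 CPM in DS, 34.4 and 38.0 CPM in L6, 39.8 and 33.4 CPM in L26 and 39.0 and 34.8 CPM in L57. By contrast the promoter of AT2G16586, also among the 5 most accessible members, had 185 and 173 CPM in DS, 111 and 121 CPM in L6, 185 and 213 CPM in L26 and 424 and 327 CPM in L57. It was lowest in L6 and highest in L57, with a log2 fold change of 1.06 ± 0.10 (SE, edgeR adjusted p = 1.83e-19) against DS. This ACR is multi-copy, with 4 other matches in the genome.

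Genes known to act on heterochromatin were looked at by their own promoter ACRs, wherever they lie in the genome. Of 30 such genes 15 had a promoter ACR. At L6 against DS 2 (13.3%) rose and none fell (4 and none at an unadjusted p below 0.05, edgeR), where 17.6% of all ACRs and 22.3% of arm promoters rose. Of all ACRs 14.3% fell at that step, and of arm promoters 9.11%. At L26 against L6 none passed the test, and 1 was higher and 2 lower at an unadjusted p below 0.05. Of all ACRs 8.71% rose and 7.91% fell there. At L57 against L26 none rose and 2 fell (none and 3 unadjusted). There 7.53% of all ACRs rose and 6.19% fell, and 4.59% of arm promoters rose and 6.84% fell. At L57 against DS 1 of the 15 rose and 3 fell. There 17.0% of all ACRs rose and 12.2% fell, and 17.1% of arm promoters rose and 15.5% fell. The medians of the 15 were 0.17, 0.01, -0.18 and 0.03, beside -0.01, -0.01, -0.02 and -0.01 for all ACRs and 0.17, -0.07, -0.12 and -0.02 for the 9172 arm promoters. Only DCL3 and HTA7 lie in the pericentromeric windows. DCL3, the Dicer-like enzyme that makes small RNAs for DNA methylation, had 4.19 and 4.86 CPM in DS, 12.2 and 8.33 CPM in L6, 12.6 and 8.53 CPM in L26 and 8.70 and 6.06 CPM in L57. It rose at L6 (log2 fold change 1.16 ± 0.34 SE, edgeR adjusted p = 0.0044), as did DME, a DNA demethylase gene (log2 fold change 0.79 ± 0.28 SE, edgeR adjusted p = 0.023). HTA7 encodes a histone H2A variant of heterochromatin, and its promoter had 86.4 and 91.5 CPM in DS, 94.8 and 87.5 CPM in L6, 82.9 and 91.9 CPM in L26 and 81.3 and 82.5 CPM in L57, with no comparison past the test.

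AGO4, which binds the small RNAs of DNA methylation, had 44.2 and 39.9 CPM in DS, 58.6 and 51.8 CPM in L6, 41.7 and 44.8 CPM in L26 and 19.7 and 31.6 CPM in L57. It fell between DS and L57 (log2 fold change -0.68 ± 0.23 SE, edgeR adjusted p = 0.013). The linker histone gene H1.3, known for its response to drought and low light, had 30.7 and 32.2 CPM in DS, 32.2 and 26.9 CPM in L6, 21.9 and 16.3 CPM in L26 and 5.82 and 11.9 CPM in L57, and fell between DS and L57 (log2 fold change -1.78 ± 0.31 SE, edgeR adjusted p = 6.06e-07). ATXR6, a methyltransferase of histone H3 at lysine 27, also fell between DS and L57 (log2 fold change -0.55 ± 0.21 SE, edgeR adjusted p = 0.0391), and FAS2, of the chromatin assembly factor that acts with replication, rose over the same interval (log2 fold change 0.80 ± 0.31 SE, edgeR adjusted p = 0.0366). With DESeq2 no gene of the list was called in the 3 comparisons of successive stages, and 2 fell at L57 against DS.

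A seed coat marker lies in the windows as well. TT8, a regulator of flavonoid pigments of the seed coat, had 11.4 and 11.3 CPM in DS, 10.3 and 8.82 CPM in L6, 17.9 and 27.8 CPM in L26 and 25.0 and 22.9 CPM in L57 at its promoter. It rose at L26 against L6 (log2 fold change 1.29 ± 0.30 SE, edgeR adjusted p = 6.59e-04).

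The G-box and the site II-type motif were less common around member summits than around arm summits. In the 300 bases around the summit, read on both strands, the G-box (CACGTG) was found in 8.35% of members (95% Wilson interval 7.49 to 9.31%), against 13.5% of arm ACRs and 12.2% of all ACRs. The difference was larger between genes, with 7.99% of members (6.55 to 9.72%) and 17.0% of arm ACRs. At promoters the shares were 13.4% (11.3 to 15.8%) and 16.4%. In 500 bases the promoter shares were 15.9% (13.6 to 18.4%) and 18.0%. The site II-type motif (TGGGCC) was found in 14.2% of members (13.1 to 15.4%) against 22.0% of arm ACRs and 20.1% of all ACRs. Runs of GAGAGAGA were in 7.26% of members and 10.1% of arm ACRs, and the difference was smaller within position classes: 14.1% of member promoters (11.9 to 16.5%) against 15.5% of arm promoters, and 4.71% of intergenic members (3.62 to 6.11%) against 5.92% of arm intergenic ACRs. The shares for the core GAANNTTC were 9.16% of members and 10.4% of arm ACRs, for the telobox AAACCCTA 4.67% and 4.96%, and for the RY element CATGCATG 1.2% and 1.07%. Among promoters alone the site II-type motif was in 24.0% of members (21.3 to 26.9%) and 33.4% of arm ACRs. Of the 509 members with it, 125 rose (24.6%) and 37 fell (7.27%) at L6 against DS, with a median of 0.16. The 3070 without it had 369 higher (12.0%), 455 lower (14.8%) and a median of -0.14. Among all ACRs 17.6% rose and 14.3% fell at this step. Promoters held 213 of the 509, and 24.7% of all 888 promoter members rose, with a median of 0.21. The part of position class in this difference was not tested. In arm ACRs the medians with and without the motif were 0.18 and -0.02. Members with a G-box had 36 higher (12.0%) and 63 lower (21.1%) of 299 at L57 against DS. Those without had 380 higher (11.6%) and 311 lower (9.48%) of 3280. Arm ACRs divided in a like way, with 16.9% higher and 24.1% lower with a G-box, and 19.3% and 10.7% without. Among all ACRs 17.0% rose and 12.2% fell between DS and L57. A match to letters is no evidence of a bound factor. The motifs were chosen after values had been seen.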

How the data were processed

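ATAC-seq counts of 8 libraries (4 stages of wild-type Col-0, 2 libraries each) were analysed over 30223 ACRs. The count table deposited by the authors holds whole read counts per ACR and library. The CPM table deposited by the authors holds CPM values (counts relative to the library total), scaled with abundance-dependent csaw offsets. The peak file deposited by the authors gives each ACR's position and summit, and its score column was not used. Per the labels and the study's methods, reads were trimmed with fastp 0.23.4 and aligned to TAIR10 with Bowtie2 2.4.4, and reads with a mapping quality under 10, organellar and blacklisted reads were removed, as were duplicates with Genrich 0.6.1. Peaks were called with MACS3 3.0.0b3, kept where present in both replicates and merged over stages.

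The csaw-type offsets were recomputed from the counts (loess span 0.3, prior count 0.5) and matched those implied by the CPM table. Counts were tested with edgeR 4.0.16 (R 4.3.3, quasi-likelihood F test, all 8 libraries in 1 model, 4 residual degrees of freedom, Benjamini-Hochberg adjustment over all 30223 ACRs, threshold 0.05). The fitted biological coefficient of variation was 9.73%. The median prior degrees of freedom, the weight given to the spread shared over ACRs, were 190.8, so the p-values rest mostly on that shared spread. Each SE was computed as the absolute log2 fold change divided by the square root of F. The test was checked on simulated data with known changes. Named members are, for each of 4 comparisons, the 4 largest rises and falls among called members with a mean of at least 10 CPM and stages that do not overlap, the 5 with the highest mean CPM, the 3 with the smallest F at a mean of at least 20 CPM, and members at promoters of the listed genes; a subset is printed. Genes, pseudogenes and transposable element genes came from the TAIR10.1 annotation; transposable element fragments were not used. A repeat period was called at a self-identity of at least 70% of the 501 bases around a summit under a shift of 170 to 190 bases. Of 32 heterochromatin genes, 2 (H1.1 and H1.2) were dropped because the annotation gives their loci no such symbol.

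The members, gene lists and tests were chosen with earlier results of these data known, and copy number, the 178-base repeat, the motifs and the printed sequences were chosen after values had been seen. Alternatives were DESeq2 1.42.0, other scalings, GC-corrected offsets, thinning to the smallest library, moved window edges, a low-count filter, stages fitted alone, a replicate block and each library left out; an earlier form of the quasi-likelihood test was added after seeing the data.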

Additional observations from a re-analysis of the deposited data

How the results depend on the processing

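The counts of members called moved with most alternatives. For L6 against DS, 494 higher and 492 lower became 253 and 109 with the DESeq2 Wald test (69.9% of member calls higher, against 71.1% of all calls, beside 50.1% and 55.1% with edgeR, and 56.1% and 57.0% with edgeR without DS replicate 1), 265 and 240 with libraries thinned to the smallest, and 235 and 291 among members above the median of mean CPM. GC-corrected offsets gave 289 higher, total counts 765 lower, and edges moved 0.5 Mb inwards 325 higher. For L26 against L6, 340 and 180 became 123 and 102 with DESeq2, 205 and 117 with thinning and 188 and 106 above the median CPM, with 527 higher for total counts. Edges moved inwards gave 115 lower and edges moved outwards 292 lower. For L57 against L26, 135 and 243 became 46 and 89 with DESeq2. Edges moved inwards gave 87 higher, edges moved outwards 220 higher, and members above the median CPM had 109 lower. For L57 against DS, 416 and 374 became 251 and 176 above the median CPM, with 203 lower for DESeq2 and 267 higher for edges moved inwards. Members changed over the 4 stages numbered 1732, 883 with DESeq2 and 864 above the median CPM.

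The median of members at L6 against DS, -0.09, was -0.0509 with GC-corrected offsets, -0.13 with TMM factors, -0.19 with total counts, and -0.131 and -0.0672 with edges moved inwards and outwards. With total counts it was 0.20 at L26 against L6, where the median of all ACRs shifted by 0.11. At L57 against L26 it was 0.00161 above the median CPM, and at L57 against DS 0.0303 with total counts and 0.0211 above the median CPM, beside -0.08. The member to arm log2 count ratio at L6 against DS, -0.11, was -0.132 with edges moved inwards, -0.0883 with edges moved outwards and -0.0837 above the median CPM. At L57 against DS it was 0.10 above the median CPM, beside 0.04. Counts of heterochromatin genes were small and moved by 1 or 2: at L6 against DS 2 higher became 0 with DESeq2 or thinning and 1 with GC-corrected offsets. For L26 against L6, 0 higher became 1 with GC-corrected offsets, TMM factors or total counts. For L57 against L26, 2 lower became 0 with DESeq2 and 1 with GC-corrected offsets or total counts. At L57 against DS 1 higher became 0 with DESeq2, GC-corrected offsets or thinning. The causes of these shifts were not tested.

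Leaving out each library in turn gave 298 to 509 members higher and 233 to 533 lower at L6 against DS, 162 to 336 and 94 to 172 at L26 against L6, 46 to 140 and 82 to 240 at L57 against L26, and 267 to 422 and 189 to 404 at L57 against DS. The medians ran from -0.096 to -0.0608 at L6 against DS and from -0.113 to -0.0382 at L57 against DS. Heterochromatin genes ran from 0 to 3 higher at L6 against DS, from 0 to 2 lower at L57 against L26, and from 0 to 1 higher and 1 to 3 lower at L57 against DS. Dropping a library from a stage leaves it with 1 library, assumed to vary like the other stages.

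Replicate numbers did not pair the libraries: deviations of same-numbered libraries correlated at -0.04 to 0.02. With the replicate block, 488 members rose and 470 fell at L6 against DS, 326 and 171 at L26 against L6, 131 and 234 at L57 against L26, and 409 and 361 at L57 against DS. With an earlier form of the quasi-likelihood test, chosen after seeing the data, 453 rose and 428 fell at L6 against DS. The low-count filter removed no ACR and changed no value. Of 576 values of named members under alternatives, 568 kept direction and side of the threshold and 8 lost the call, among AT5G05045, MYB110, AT1G34200 and AT1G36150 at L57 against L26. In 500 bases around the summit, motif shares were 10.4% of members and 15.5% of arm ACRs for CACGTG, 17.0% and 24.1% for TGGGCC, 11.2% and 14.6% for GAGAGAGA, 16.5% and 18.3% for GAANNTTC, 7.52% and 8.45% for AAACCCTA, and 1.84% and 1.60% for CATGCATG.

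Depth limits L57 most. With 2 libraries a stage, 1 library can set a median, as L26 replicate 2 did.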
